A study of Mus musculus with 24 samples.

Results

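The effect of *Lama4* genotype in epididymal white adipose tissue (eWAT), averaged over both diets, was taken as the mean of the AKO minus fl/fl difference in chow-fed mice and the AKO minus fl/fl difference in HFD-fed mice. It used all 24 libraries, 12 AKO and 12 fl/fl, with diet in the model, and was computed for every one of the 15020 genes, of 16730 in the count table, that reached a CPM (counts scaled to a library total of 1e6) of at least 1 in at least 3 libraries. CPM values given below are also scaled by TMM (trimmed mean of M values), which corrects the totals for differences in composition. The comparison asks which genes differ between genotypes in the mean of both diets, and it does not require a difference on each diet. The values are counts of 3′ mRNA tags in the epididymal fat pads of 24 male mice, 6 per group, after 20 weeks on their diet, with 1 library per mouse. The first group was chow-fed *Lama4* fl/fl mice, which the labels call wild type (floxed), and the second was chow-fed *Lama4* AKO mice, which lack *Lama4* in adipocytes. The third and the fourth groups were fl/fl and AKO littermates on the high-fat diet (HFD, 45% fat). All 24 mice, controls included, carried floxed *Lama4* alleles and have the strain label LFKO. These alleles were made in C57BL/6N embryonic stem cells, and the study names a C57BL/6J background for the offspring. The strain of the in-house Cre colony is not stated in the study. Only AKO mice carried Cre, driven by the adiponectin promoter, so that deletion was limited to adipocytes and every other cell of the fat pad kept the gene, and Cre and deletion cannot be told apart.

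Laminins are heterotrimers of an alpha, a beta and a gamma chain that polymerise into the basement membrane, the thin matrix sheet around each adipocyte and each capillary. Laminin alpha 4, the product of *Lama4*, is the alpha chain of the laminins of adipocyte, endothelial and muscle basement membranes, and cells bind it through integrins and other receptors. In fat pads the basement membrane, built with type IV collagen, nidogens and perlecan, surrounds adipocytes as they enlarge to store lipid.

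Library totals ran from 5579590 to 18764516 counts, with group medians of 15062225.5 and 14179690.5 for chow-fed fl/fl and AKO and of 14462065.5 and 11405835 for HFD-fed fl/fl and AKO. The log2 library total was lower in AKO by an average difference of -0.333 (p = 0.0155, two-sided exact permutation of genotype within diet). On HFD that difference was -0.410 (exact permutation p = 0.0021645, the smallest that 6 against 6 can give) and on chow it was -0.257 (exact permutation p = 0.431). The first principal component of log2 CPM held 45.8% of the variance, spread the libraries within every group, and differed between genotypes by 11.8 on average (exact permutation p = 0.540). That average was made of -18.8 on chow (exact permutation p = 0.463) and 42.5 on HFD (exact permutation p = 0.171). The defining adipocyte markers were abundant in all libraries, with the 18 adipocyte identity genes summing to between 19544 and 69679 CPM, while the epididymal epithelium markers in the table summed to 0 to 18.4 CPM. Because the tissue is bulk fat pad, fewer cells of a type and less RNA per cell cannot be told apart in any value below.

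*Lama4* itself was read first. Its tag lies at the 3′ end of the gene (ENSMUSG00000019846, chr10:38965515-39110188, plus strand, GRCm38), 5184 spliced bases after the floxed exon 3, so that transcripts without exon 3 still give a tag and the level does not check the deletion. The floxed exon is shown because it is the part of the transcript that Cre removes. It covers chr10:39010998-39011122 on the plus strand, and its 125 bases leave a remainder of 2 when divided into codons, so that its loss shifts the reading frame (sequence from the GENCODE M21 transcripts).
Lama4 exon 3: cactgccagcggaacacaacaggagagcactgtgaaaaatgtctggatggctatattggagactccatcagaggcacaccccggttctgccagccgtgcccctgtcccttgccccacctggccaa
In chow-fed mice *Lama4* ranged from 41.2 to 196 CPM in fl/fl (median 91.7) and from 64.2 to 133 CPM in AKO (median 113). In HFD-fed mice it ranged from 32.4 to 135 CPM in fl/fl (median 78.7) and from 36.4 to 92.5 CPM in AKO (median 44.3). The genotypes overlapped on both diets. The average log2 fold change of *Lama4*, AKO over fl/fl, was -0.29 (SE 0.243, adjusted p = 0.953 by the edgeR quasi-likelihood test with Benjamini-Hochberg adjustment), made of 0.11 on chow and -0.69 on HFD. A two-sided exact permutation test of its log2 CPM gave an average difference of -0.172 with p = 0.527. By quantitative PCR the study reported a knockdown of *Lama4* in epididymal and inguinal fat of chow-fed AKO mice.

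Averaged over both diets, 5 genes were called (0.0333% of genes tested), of which *Zfp949* and *Gm28586* rose (0.0133%) and *mt-Ti*, *Ces1f* and *9330159M07Rik* fell (0.02%) in AKO. Calls needed a 1.5-fold difference in either direction, an unadjusted p no higher than 0.001 and a highest group mean of 2 CPM or more. Only *Zfp949* also had an adjusted p of at most 0.05 (0.00666% of genes tested). The other called genes had adjusted p-values of 0.235 to 0.900 in the edgeR quasi-likelihood test, so their calls rest on the unadjusted p. In simulated counts the same criteria also called 11 genes whose level had not been changed. At an unadjusted p under 0.05 there were 691 genes (4.6%), 307 higher (2.04%) and 384 lower (2.56%). That share is no larger than a p under 0.05 gives when no gene differs. Genes in that range that were not called are named below as nominally higher or lower. The median SE of the average log2 fold change was 0.172 over all genes tested, against 0.243 within a single diet, and the median log2 fold change was -0.02. Of the 15020 genes, 6845 had a positive and 8175 a negative average.

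*Zfp949*, which encodes a zinc finger protein, was the gene with the lowest p. It lies at chr9:88548020-88571061 on the plus strand (GRCm38, ENSMUSG00000032425). In chow-fed mice it measured 2.11 to 5.80 CPM in fl/fl (median 4.86) and 6.38 to 12.4 CPM in AKO (median 10.5). In HFD-fed mice it measured 2.71 to 4.49 CPM in fl/fl (median 3.56) and 5.78 to 10.9 CPM in AKO (median 7.07). Every AKO library lay above every fl/fl library on each diet, and *Zfp949* was the only one of the 15020 genes (0.00666%) without overlap in the same direction on both diets. On chow alone 39 genes (0.26%) had no overlap and on HFD alone 80 genes (0.533%). *Zfp949* rose 2.24-fold on average (log2 fold change 1.16, SE 0.175, adjusted p = 0.0118 by the edgeR quasi-likelihood test). The rise was 1.25 on the log2 scale on chow and 1.07 on HFD, and the unadjusted p of their difference was 0.612.

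*Gm28586* was near presence or absence. It is a sense-intronic transcript (ENSMUSG00000100176) of 456 bases at chr9:100530616-100531071 on the minus strand, inside *Nck1* on the same strand. The log2 fold change of *Nck1* was -0.20 (unadjusted p = 0.134, edgeR quasi-likelihood test). Reads of unspliced *Nck1* RNA in this intron and reads of *Gm28586* cannot be told apart. The last 100 bases, where a 3′ tag of this transcript would fall, are given because they are the region behind the count (chr9:100530616-100530715, minus strand, GENCODE M21 transcript).
Gm28586 3′ end: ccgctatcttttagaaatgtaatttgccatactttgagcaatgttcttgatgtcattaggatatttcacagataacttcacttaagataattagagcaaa
All 6 chow-fed fl/fl libraries had 0 counts, and the chow-fed AKO libraries had 10, 6, 7, 12, 9 and 17. Against a floor of 3 counts over the fl/fl group, *Gm28586* was at least 23.5-fold higher in chow-fed AKO mice. On HFD the 6 AKO libraries held 196 counts in all. Of the HFD-fed fl/fl libraries 5 had 0 counts, and replicate 2 had 33 (2.03 CPM), a value inside the 1.52 to 4.11 CPM of HFD-fed AKO. *Zfp949* in the library labelled HFD-fed fl/fl replicate 2 was 2.95 CPM, inside the fl/fl range. With that library the HFD ratio was 7.90, and without it *Gm28586* was at least 71.0-fold higher in HFD-fed AKO. The fitted average log2 fold change was 4.72 (SE 0.899, adjusted p = 0.235, edgeR quasi-likelihood test) and 7.35 without that library.

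The called genes that fell were those of a mitochondrial tRNA, a carboxylesterase and a long noncoding RNA. The values are 3′ mRNA tags, and whether those counted for *mt-Ti* came from the tRNA or from a longer precursor was not tested. *mt-Ti*, the isoleucine tRNA of the mitochondrial genome (ENSMUSG00000064342, chrM:3706-3774, plus strand), measured 14.0 to 27.4 CPM in chow-fed fl/fl (median 19.8) and 8.49 to 18.5 CPM in chow-fed AKO (median 10.6). In HFD-fed mice *mt-Ti* measured 9.48 to 17.7 CPM in fl/fl (median 14.3) and 7.41 to 12.5 CPM in AKO (median 8.58). The ranges overlapped, but 6 of 6 AKO libraries lay under the fl/fl median on each diet. It fell on average by 0.69 on the log2 scale (SE 0.149, unadjusted p = 1.07e-04, edgeR quasi-likelihood test). Its sequence is printed because its ends are shared with other genes: the capitals mark 2 bases at the 5′ end that also belong to *mt-Nd1* on the same strand and 3 bases at the 3′ end that overlap *mt-Tq* on the opposite strand.
mt-Ti: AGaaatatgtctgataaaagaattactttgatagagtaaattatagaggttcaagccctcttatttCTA
In the same fit the log2 fold changes of *mt-Nd1* and *mt-Tq* were -0.19 and -0.67.

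*Ces1f* encodes a carboxylesterase of the family that hydrolyses lipid and drug esters (ENSMUSG00000031725, chr8:93256236-93279747, minus strand). It measured 9.61 to 42.7 CPM in chow-fed fl/fl (median 15.5) and 7.36 to 20.3 CPM in chow-fed AKO (median 8.80), then 8.01 to 22.9 CPM in HFD-fed fl/fl (median 13.6) and 5.98 to 11.3 CPM in HFD-fed AKO (median 7.24). The genotypes overlapped on both diets, with 5 of 6 chow-fed and 6 of 6 HFD-fed AKO libraries under the fl/fl median. *Ces1f* fell by 0.89 on the log2 scale (SE 0.229, unadjusted p = 6.98e-04, edgeR quasi-likelihood test), by 0.88 on chow and 0.90 on HFD. Its near neighbours in the carboxylesterase cluster, which may share reads with it, had log2 fold changes of -0.89 (*Ces1d*, nominally lower), -1.04 (*Ces1e*) and -1.13 (*Ces1c*).

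*9330159M07Rik* is a long noncoding RNA gene (ENSMUSG00000097177, chr9:88840236-88858870, minus strand) that overlaps *Trim43c* and *Gm9775* on the opposite strand. Its level was 5.24 to 14.9 CPM in chow-fed fl/fl (median 9.52) and 3.07 to 8.54 CPM in chow-fed AKO (median 7.24). On HFD it was 2.41 to 17.1 CPM in fl/fl (median 6.58) and 1.07 to 3.13 CPM in AKO (median 2.73), where fl/fl replicates 1 and 2 lay inside the AKO range. The average log2 fold change was -1.10 (SE 0.288, unadjusted p = 8.14e-04, edgeR quasi-likelihood test), made of -0.49 on chow and -1.72 on HFD, and the difference between diets had an unadjusted p of 0.0416.

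**Figure D1:**
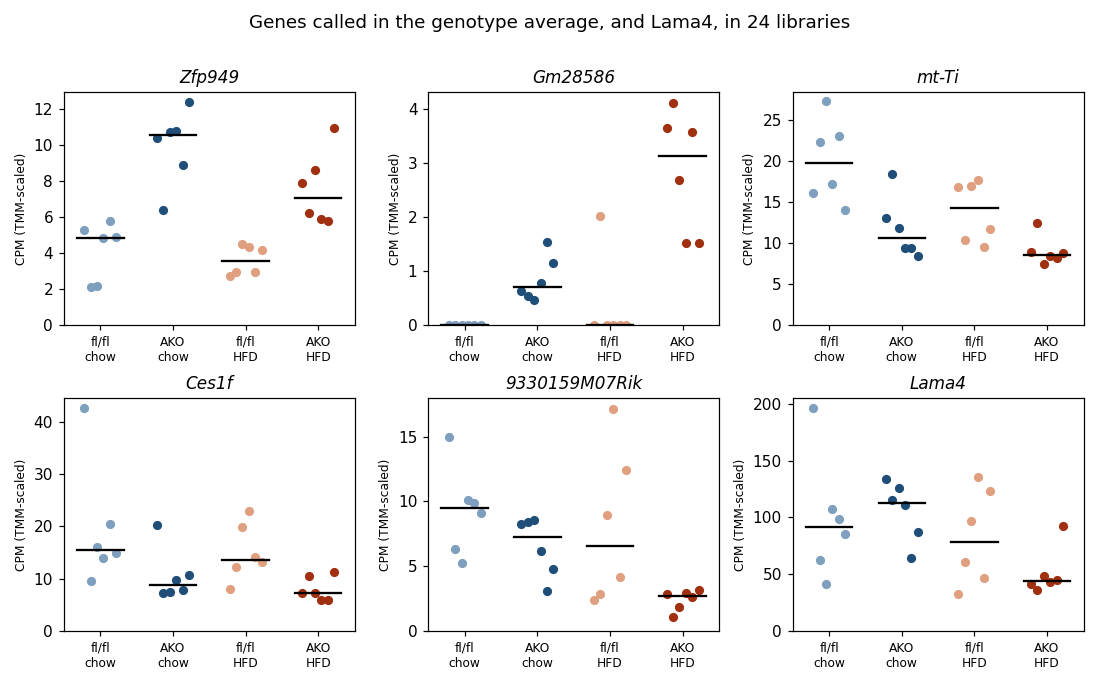
Levels of the 5 genes called in the average over both diets and of *Lama4*, in TMM-scaled CPM, with 1 point per library and a bar at the median of each of the 4 groups of 6 mice. *Zfp949* is the panel in which AKO and fl/fl points do not overlap on either diet, and in the *Gm28586* panel 1 HFD-fed fl/fl library, at 2.03 CPM, lies among the AKO points.

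These calls differed in how far they depended on single mice and on the fit. *Zfp949* and *Gm28586* were called in all 24 fits that left out 1 library and in 13 of 13 fits that changed the model, scaling, filter or libraries. *Gm28586* met the level criterion only through HFD-fed AKO, so its repeated calls are no independent support. With 0 counts in most fl/fl libraries, its fitted log2 fold change ran from 3.28 to 5.565 over the 13. *mt-Ti* was called in 24 of 24 and lost in 3 of 13, among them the fit with the log2 library total as a covariate (unadjusted p = 0.00134). *9330159M07Rik* lost its call in 14 of the 24 and 7 of the 13, and *Ces1f* in 13 and 5. An earlier analysis of these data took 5 libraries as set aside by the study. They were chow-fed fl/fl replicate 3, chow-fed AKO replicate 5 and HFD-fed fl/fl replicates 3, 4 and 6. No HFD-fed AKO library was among them, and the HFD-fed fl/fl ones were the lowest of their group in the first principal component. The 19 libraries kept are therefore uneven between genotypes on HFD. Without these 5, the log2 fold changes were -0.52 for *mt-Ti*, -0.69 for *Ces1f* and -0.43 for *9330159M07Rik*, and none of these 3 was called. In that fit 652 of 14863 genes were higher and 464 lower at an unadjusted p under 0.05. The nearest genes on the other side of the threshold had log2 fold changes of -0.81 (*mt-Tt*), -0.72 (*Gm43581*) and -0.85 (*Chrm3*, a muscarinic acetylcholine receptor gene), with unadjusted p-values of 0.00107 to 0.00144.

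A further 10 genes had an unadjusted p of at most 0.001 but missed the fold or level criterion, so that 15 genes (0.0999%) passed that p. This share is about what a p of at most 0.001 gives when no gene differs. The 10 genes are named after their values were seen. Nominally higher in AKO were *Ptgfrn* (0.41), the intramembrane protease gene *Sppl2b* (0.37), the transcriptional cofactor gene *Hcfc1* (0.29) and the fibrillar collagen gene *Col5a1* (0.41). Nominally lower were the centrosome and cilium genes *Cspp1* (-0.45) and *Cep70* (-0.41), the cytochrome c oxidase subunit gene *Cox6c* (-0.50), *Oxld1* (-0.50), *E130102H24Rik* (-0.54) and *Zfp882* (-1.02). *Cspp1*, with the lowest p of these, measured 33.5 to 45.7 CPM in chow-fed fl/fl and 28.7 to 37.9 CPM in chow-fed AKO, then 25.8 to 40.5 CPM in HFD-fed fl/fl and 18.0 to 25.1 CPM in HFD-fed AKO. Its genotypes separated on HFD and overlapped on chow (unadjusted p = 3.64e-05, adjusted p = 0.235, edgeR quasi-likelihood test).

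The average was taken over differences that pointed in opposite directions for most genes. Of the 15020 genes, 5366 (35.7%) had the same sign on chow and on HFD, where the contrasts share no library, and across genes the log2 fold changes had r = -0.32 and rho = -0.383. Genes are not independent, and no test is given. Under the other fits this same-sign share ran from 32.8% with limma-voom to 46.3% with limma-voom on 19 libraries, and leaving out 1 library gave 30.5% to 43.0%. Within a diet, 18 genes were called on chow (0.12%), 11 higher (0.0732%) and 7 lower (0.0466%). On HFD 27 were called (0.18%), 13 higher (0.0866%) and 14 lower (0.0932%). None had an adjusted p of at most 0.05 in the edgeR quasi-likelihood test, where 878 genes (5.85%; 2.62% higher and 3.22% lower) had an unadjusted p under 0.05 on chow and 2227 (14.8%; 5.83% higher and 8.99% lower) on HFD. DESeq2 called 42 and 84 by the same criteria of fold, unadjusted p and level. Of the 18, 7 kept their sign on HFD, and of the 27, 9 kept theirs on chow. The median absolute log2 fold change was 0.171 on chow and 0.258 on HFD and 0.124 in their average.

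**Figure D2:**
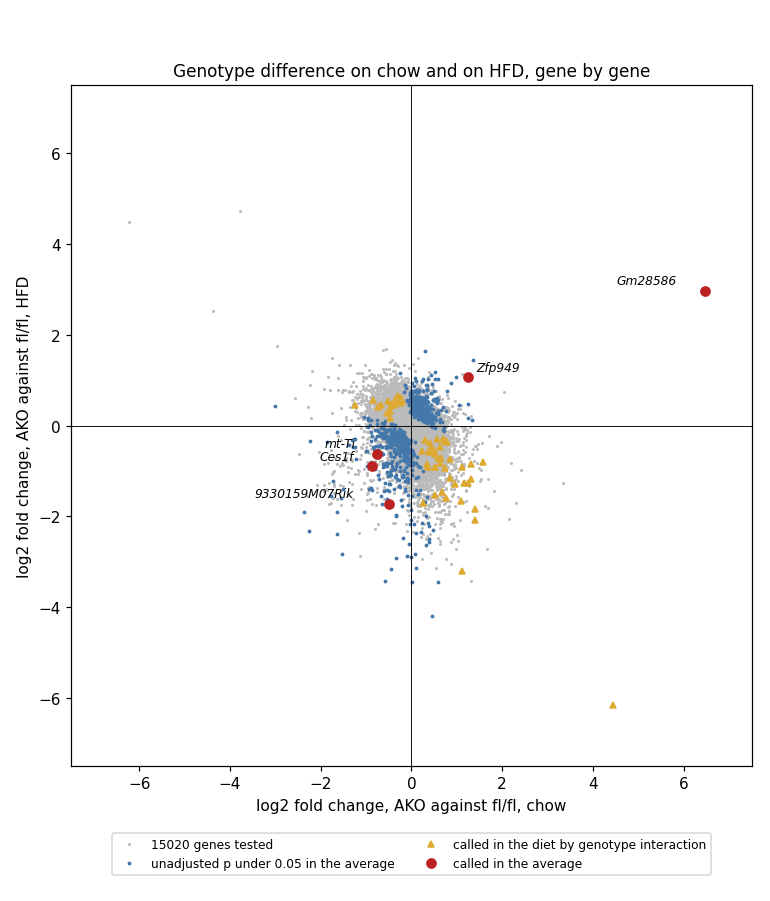
The log2 fold change of AKO over fl/fl on chow (horizontal axis) against that on HFD (vertical axis), with 1 point per gene tested. Blue points had an unadjusted p under 0.05 in the average, yellow triangles were called for the difference between diets, and red points with names are the 5 genes called in the average. More genes lie in the quadrants of opposite sign than in those of the same sign, which hold 35.7% of genes. The called genes lie in the same-sign quadrants, where selection on the average places most genes (87.7% of the blue points).

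The test of the difference between diets called 58 genes (0.386%), of which 19 (0.126%) had the higher AKO effect on HFD and 39 (0.26%) the lower. None of the 58 had the same sign on both diets, as selection on the difference favours opposite signs. *Ubqln4*, which encodes a ubiquitin-like protein of proteasomal delivery, was the only one with an adjusted p of at most 0.05 (adjusted p = 0.0499, edgeR quasi-likelihood test). In chow-fed mice *Ubqln4* was 13.6 to 20.7 CPM in fl/fl and 20.96 to 35.0 CPM in AKO, and in HFD-fed mice 20.4 to 32.5 CPM in fl/fl and 14.3 to 23.3 CPM in AKO. AKO was above fl/fl on chow without overlap and under the fl/fl median in 6 of 6 mice on HFD, and the average log2 fold change was -0.04 from 0.65 and -0.72. *Plxnd1*, a semaphorin receptor gene, had the same pattern, with 20.6 to 37.0 CPM in fl/fl against 37.0 to 67.1 CPM in AKO on chow, and 44.5 to 60.0 against 34.6 to 47.8 CPM on HFD. Its average log2 fold change was 0.20 (SE 0.103, unadjusted p = 0.0622, edgeR quasi-likelihood test), from 0.74 on chow and -0.34 on HFD, with an unadjusted p of 2.45e-05 for the difference.

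At an unadjusted p under 0.05 on both diets there were 144 genes, of which 123 (0.819% of genes tested) had opposite signs and 21 (0.14%) the same sign. On the single diets 5.85% (chow) and 14.8% (HFD) of genes passed that p, so small overlaps of this kind arise without a shared effect. The 10 that were higher on both were *Zfp949*, *Gm28586*, *Sppl2b*, *Col5a1*, *9330154J02Rik*, *Klf16*, *Ndst1*, *Gm42679* and the basement membrane collagens *Col15a1* and *Col4a2*. *Ndst1*, which encodes a heparan sulfate sulfotransferase, had an average log2 fold change of 0.37, and the transcription factor gene *Klf16* one of 0.39. The 11 that were lower on both were *mt-Ti*, *Cep70*, *Cox6c*, *Ces1f*, *Oxld1*, *Chrm3*, *Acat3*, *Zfp672*, *Cbr4*, *Orc3* and *Atp5e*. *Acat3*, an acetyl-CoA acetyltransferase gene, had the lowest of these values in the average, -1.77 (SE 0.498, unadjusted p = 0.00159, edgeR quasi-likelihood test).

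Chromosome 9 held 3 of the 5 called genes, *Zfp949*, *Gm28586* and *9330159M07Rik*, among 840 genes tested. Within 15 Mb of *Zfp949*, a window chosen after the values were seen, 9 of 138 genes (6.52%) had an unadjusted p of at most 0.01, against 3 of 702 (0.427%) on the rest of the chromosome and 96 of 14180 (0.677%) on the others. The 9 include *Zfp949*, on which the window is centred, and the other called genes of the chromosome, so the share is no independent support for a cluster. At an unadjusted p under 0.05 the shares were 11.6%, 3.85% and 4.57%. The called lncRNA *9330159M07Rik* started 0.292 Mb from *Zfp949* and *Gm28586* 11.983 Mb from it. Of the 13 genes of the window that were nominally different but not called, 4 were higher and 9 lower. At an unadjusted p of at most 0.01 *9330154J02Rik* was higher (1.40), while the ciliary gene *Cep162* (-0.57), the T-box gene *Tbx18* (-0.40), the small nucleolar RNA host gene *Snhg5* (-0.42), the chromatin gene *Morf4l1* (-0.71) and *Cep70* (-0.41) were lower. The others were *Rasgrf1* (0.51), *Gm17530* (0.38) and *Slco2a1* (0.22), which were higher, and *Sh3bgrl2* (-0.40), *Trf* (-0.39), *Cox7a2* (-0.33) and *Arpp19* (-0.18), which were lower. Whether these genes lie together more than chance gives, and what lies behind their position, was not tested. On every chromosome the effect is that of AKO against fl/fl littermates.

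**Figure D3:**
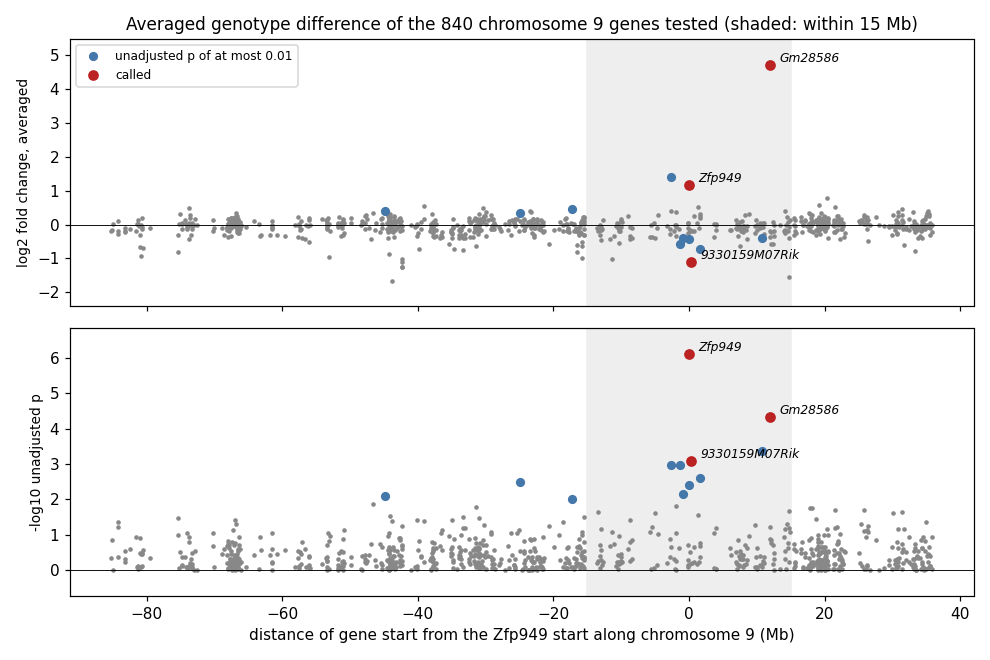
The log2 fold change of AKO over fl/fl averaged over both diets (upper panel) and the -log10 of its unadjusted p (lower panel) for the genes of chromosome 9, by distance from the start of *Zfp949* in Mb, with 1 point per gene tested, blue at an unadjusted p of at most 0.01 and red where called. The genes at an unadjusted p of at most 0.01 lie mostly within 15 Mb of *Zfp949*, 9 of the 12 on the chromosome, with the called genes among the 9. That window is centred on *Zfp949* and was chosen after the values were seen.

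All 24 genes of the mitochondrial chromosome that were tested had a negative average, with a median log2 fold change of -0.69, and 15 of 24 (62.5%) were at an unadjusted p under 0.05 against 4.6% of all genes; only *mt-Ti* was called. The 14 tRNA genes had a median of -0.78 with 10 nominally lower, among them *mt-Ta* (-0.98) and *mt-Tt* (-0.81). Together the tRNA genes held 0.00585% to 0.0321% of the counts of a library, against 4.68% to 9.51% for the protein-coding genes. Whether tags counted for tRNA genes came from tRNAs or from longer precursors was not tested. Of the 8 protein-coding genes, with a median of -0.38, 3 were nominally lower. *mt-Co1*, a core subunit of cytochrome c oxidase, was 1067 to 1616 CPM in chow-fed fl/fl and 584 to 1255 CPM in chow-fed AKO, then 648 to 974 CPM and 578 to 777 CPM on HFD, with an average of -0.40 (SE 0.117, unadjusted p = 0.00217, edgeR quasi-likelihood test). The complex I subunit genes *mt-Nd5* (-0.37) and *mt-Nd6* (-0.66) were the others. These genes are transcribed as joint precursors and are not independent.

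The ribosomal RNA genes of the mitochondrion, *mt-Rnr1* (-1.04) and *mt-Rnr2* (-1.10), differed from the rest in where the average came from, with a median of -0.01 on chow and -2.13 on HFD. Their joint share of counts was 0.371% to 4.23% in chow-fed fl/fl and 0.957% to 5.14% in chow-fed AKO. On HFD it was 0.332% to 3.28% in fl/fl and 0.245% to 0.919% in AKO, where AKO replicate 6 was the only library above 0.289%. The share of all 24 mitochondrial genes had medians of 11.7% and 9.42% in chow-fed fl/fl and AKO and of 9.68% and 7.48% in HFD-fed fl/fl and AKO. Library totals were also lower in AKO, and with the log2 library total as a covariate 7 of the 24 were nominally lower, with 24 of 24 still negative and a median of -0.50. Without the 5 libraries named above 22 of 23 were negative and 11 nominally lower, all of them tRNA genes (median -0.84), while 0 of 8 protein-coding genes (median -0.19) and neither rRNA gene (median -0.10) passed.

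**Figure D4:**
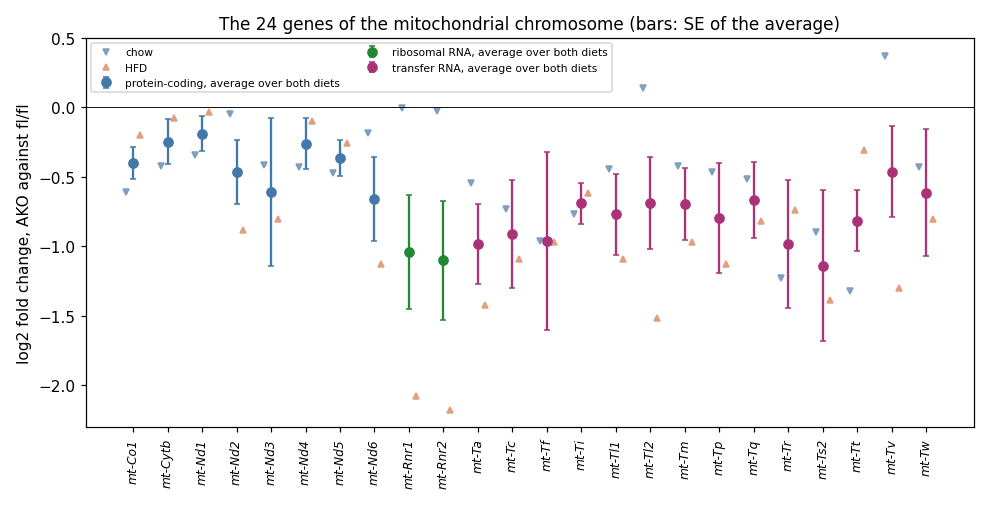
The log2 fold change of AKO over fl/fl for the 24 tested genes of the mitochondrial chromosome, grouped as tRNA, rRNA and protein-coding, on chow and on HFD (triangles) and averaged over both diets (circles, with bars of 1 SE). The averages all lie below 0, and the rRNA genes have values near 0 on chow and near -2 on HFD.

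Of 55 nuclear subunit genes of the respiratory chain and ATP synthase (oxidative phosphorylation), 53 had a negative average. Nominally lower were 19 of the 55, and none was nominally higher. Among all 15020 genes 8175 had a negative average, and 2.56% were lower and 2.04% higher at an unadjusted p under 0.05. The median of the 55 was -0.20, against -0.02 over all genes, and no member was called. By complex, 7 of 21 genes of complex I (NADH dehydrogenase), 0 of 4 of complex II, 2 of 7 of complex III, 5 of 10 of complex IV (cytochrome c oxidase) and 5 of 13 of complex V (ATP synthase) were nominally lower. *Cox6c* measured 653 to 1128 CPM in chow-fed fl/fl (median 830) and 408 to 914 CPM in chow-fed AKO (median 551), then 550 to 901 CPM in HFD-fed fl/fl (median 706) and 427 to 591 CPM in HFD-fed AKO (median 511). It was under the fl/fl median in 5 of 6 chow-fed and 6 of 6 HFD-fed AKO mice, with an average of -0.50 (SE 0.128, unadjusted p = 6.44e-04, edgeR quasi-likelihood test). *Ndufa5*, a complex I subunit gene, had an average of -0.42, made of -0.63 on chow and -0.21 on HFD. The median of the 55 genes was -0.28 on chow, where 6 were positive, and -0.09 on HFD, where 14 were. With the log2 library total as a covariate 6 of the 55 were nominally lower, and on 19 libraries 10 were lower and 1 higher, with medians of -0.17 and -0.11. Adipocyte identity genes, described below, had a median of -0.34 in the same average, and their part in these values was not tested.

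Of 78 cytosolic ribosomal protein genes, 39 were nominally lower on chow (median -0.43), while on HFD the median was 0.13 with 4 nominally higher and 1 lower. Among all genes 3.22% were lower on chow at an unadjusted p under 0.05, and 5.83% were higher and 8.99% lower on HFD. In the average 73 of the 78 were negative (8175 of all 15020 genes), with a median of -0.15 and only *Rpl26* nominally lower (-0.43). With the first principal component as a covariate 24 of the 78 were nominally lower in the average, against 540 of all 15020 genes. On 19 libraries 19 of the 78 were, against 464 of all 14863 genes. The HFD median was -0.03 and -0.01 in these fits.

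Of 11 fibrillar and microfibrillar collagen genes 10 had a positive average (median 0.29), 4 were nominally higher and none was called. Among all 15020 genes 6845 had a positive average, and 2.04% were higher at an unadjusted p under 0.05. On chow 7 of the 11 were positive (median 0.09) and on HFD 9 (median 0.26). *Col5a1*, which nucleates collagen fibrils, measured 131 to 217 CPM in chow-fed fl/fl (median 144) and 148 to 234 CPM in chow-fed AKO (median 214), then 148 to 217 CPM in HFD-fed fl/fl (median 191) and 177 to 304 CPM in HFD-fed AKO (median 256). The ranges overlapped, and 6 of 6 chow-fed and 5 of 6 HFD-fed AKO libraries were above the fl/fl median (0.41, SE 0.108, unadjusted p = 9.92e-04, adjusted p = 0.900, edgeR quasi-likelihood test). The beaded filament genes *Col6a2* (0.35) and *Col6a1* (0.30) and the type I collagen gene *Col1a1* (0.44) were the other 3. Among 12 stromal progenitor markers 7 had a positive and 5 a negative average, with 0 nominally higher and *Dpt* nominally lower (-0.28). Their summed level was 3887 to 5137 CPM in chow-fed fl/fl and 3050 to 4279 CPM in chow-fed AKO, then 3256 to 5742 CPM and 4034 to 5216 CPM on HFD, and its part in the collagen values was not tested.

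Of the 19 other basement membrane genes tested, 3 were nominally higher, all collagens, with a list median of 0.06. On 19 libraries 7 were nominally higher with a median of 0.26, and with the first principal component as a covariate 7 were, with a median of 0.14. *Col15a1*, a basement membrane zone collagen gene, was 254 to 382 CPM in chow-fed fl/fl (median 274) and 301 to 397 CPM in chow-fed AKO (median 349), then 275 to 409 CPM in HFD-fed fl/fl (median 308) and 351 to 453 CPM in HFD-fed AKO (median 408). It was above the fl/fl median in 6 of 6 AKO mice on each diet, with 0.29 on average (SE 0.0912, unadjusted p = 0.00430, edgeR quasi-likelihood test), 0.27 on chow and 0.31 on HFD. *Col4a2*, a chain of the type IV collagen network, had the same average of 0.29, with 0.29 on chow and 0.30 on HFD, and its partner chain *Col4a1* had 0.22, with 0.43 and 0.02. No laminin chain gene was nominally different: of 10 chains tested, *Lama4* included, 0 passed an unadjusted p under 0.05 in either direction and the median was 0.05, against -0.04 with the log2 library total as a covariate. *Lamc3*, the gamma 3 chain gene, had an average of -0.27 (unadjusted p = 0.182), and *Lama5*, which encodes another alpha chain, had 0.62 on chow and -0.23 on HFD. None of 14 laminin receptor genes was nominally different in the average, where the median was -0.07, while 14 of 14 had a positive value on chow and 1 of 14 on HFD. On 19 libraries the receptor median was 0.10 with 3 nominally higher. None of 18 plexin, neuropilin and class 3 semaphorin genes was nominally different, with a median of 0.03, against -0.01 on 19 libraries with 2 nominally higher.

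**Figure D5:**
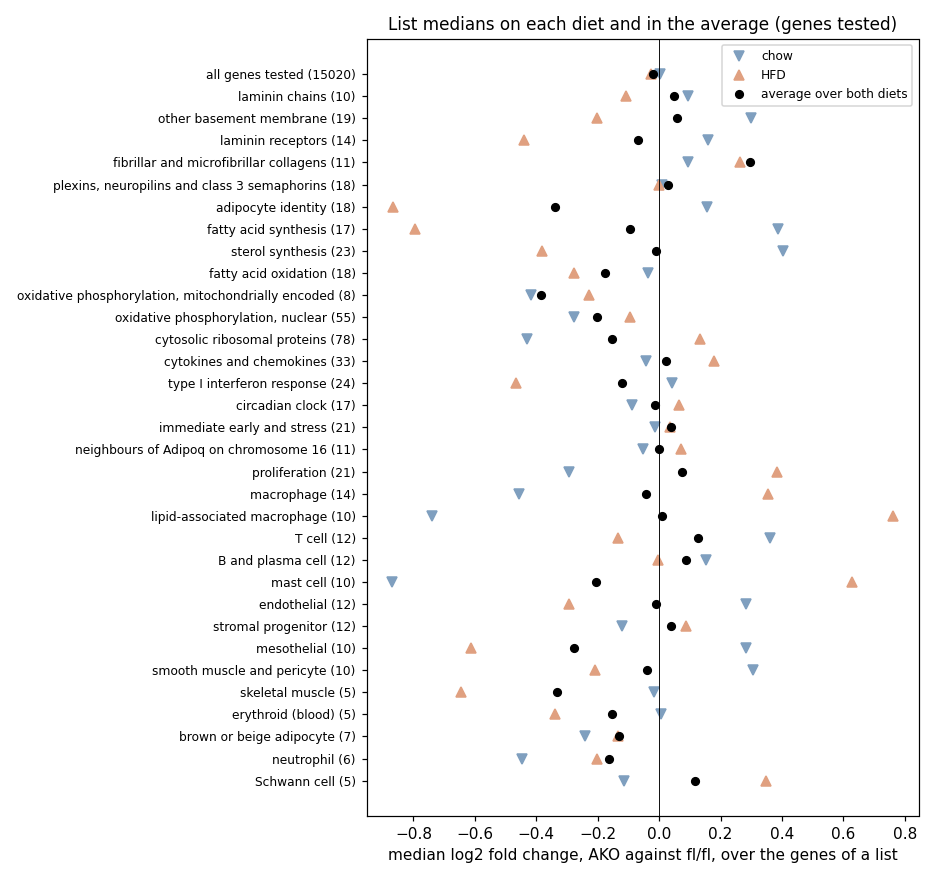
Median log2 fold change of AKO over fl/fl of each gene list and marker list with at least 5 genes tested (number in brackets), on chow and on HFD (triangles) and averaged over both diets (circles). Most lists have medians of opposite sign on the diets and an average near 0. Nuclear oxidative phosphorylation (-0.20) and fibrillar collagens (0.29) have the same sign on both. So do the lists of mitochondrially encoded oxidative phosphorylation, fatty acid oxidation, brown or beige adipocytes, neutrophils and skeletal muscle.

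Adipocyte identity, fatty acid synthesis and sterol synthesis lists had medians of opposite sign on the diets. Of 18 adipocyte identity genes, 17 had a negative average (median -0.34), made of a median of 0.16 on chow and -0.87 on HFD, where 10 were nominally lower. Among all 15020 genes 8175 had a negative average, and 8.99% were lower on HFD at an unadjusted p under 0.05. The 3 of the 18 that were nominally lower in the average were the fatty acid binding protein gene *Fabp4* (-0.66) and the secreted factor genes *Cfd*, adipsin (-1.09), and *Retn*, resistin (-1.06). *Fabp4* was 12618 to 27655 CPM in chow-fed fl/fl and 10252 to 23694 CPM in chow-fed AKO, then 5923 to 28443 CPM and 5707 to 17255 CPM on HFD, with overlap on both. On 19 libraries the list's median was 0.15, with 12 of 18 positive and none nominally lower, so that its sign rests on which libraries are kept. Fatty acid synthesis genes (17) had a median of 0.39 on chow, -0.79 on HFD and -0.09 in the average, with none nominally different, against an average of 0.18 with 4 nominally higher on 19 libraries. Sterol synthesis genes (23) had 0.40, -0.38 and -0.01, against an average of 0.16 on 19 libraries. Of 18 fatty acid oxidation genes, *Decr1* was nominally lower (-0.33) and the median was -0.18, with -0.03 on chow and -0.28 on HFD, against an average of 0.05 on 19 libraries. Of 7 brown or beige adipocyte markers, *Cox8b* (-0.53), *Cidea* (-0.58) and the mitochondrial biogenesis coactivator gene *Ppargc1a* (-0.78) were nominally lower, and none was on 19 libraries. The median of these 7 was -0.24 on chow and -0.13 on HFD.

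Most marker lists of immune and other cells had medians near 0 in the average and of opposite sign between diets. The 14 macrophage markers had medians of -0.46 on chow, 0.35 on HFD and -0.04 on average, and the 10 lipid-associated macrophage markers had -0.74, 0.76 and 0.01, with none nominally different in either average. These averages depended on the fit: on 19 libraries they were -0.28 and -0.51, with the log2 library total as a covariate -0.07 and -0.43, and with limma-voom 0.11 and 0.14. Summed macrophage markers ran from 2334 to 16294 CPM in chow-fed fl/fl and 3328 to 12513 CPM in chow-fed AKO, then 3383 to 18175 CPM and 10024 to 17757 CPM on HFD. *Trem2*, the lipid receptor gene of those macrophages, was 16.9 to 422 CPM in chow-fed fl/fl and 31.8 to 354 CPM in chow-fed AKO, then 53.3 to 574 CPM and 280 to 532 CPM on HFD, and averaged -0.14 (SE 0.418). Of 10 mast cell markers *Kit*, the stem cell factor receptor gene, was nominally higher (0.54), while 8 of the 10 had a negative average. The list medians were -0.87 on chow, 0.63 on HFD and -0.20 on average, against an average of -0.76 with 2 nominally lower on 19 libraries. The endothelial markers (12) had 0.28, -0.29 and -0.01, against an average of 0.21 with 3 nominally higher on 19 libraries, and the mesothelial markers (10) 0.28, -0.61 and -0.28 with none nominally different. T cell, B cell, smooth muscle, skeletal muscle, erythroid, neutrophil and Schwann cell markers held no nominally different member in the average, and their medians ran from -0.33 for skeletal muscle, with 5 of 10 markers tested, to 0.13 for T cells.

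Among the remaining lists single genes passed an unadjusted p under 0.05, which 4.6% of all genes tested passed. Such counts do not set these lists apart from all genes. Of 33 cytokine and chemokine genes, the macrophage growth factor gene *Csf1* was nominally higher (0.29). Of 24 type I interferon response genes, *Ifi27l2a* was nominally lower (-0.70) and 21 had a negative average, against 8175 of all 15020 genes. The clock gene *Bhlhe40* (0.37, of 17 clock genes) and the Krüppel-like factor gene *Klf2* (0.28, of 21 immediate early and stress genes) were nominally higher. None of 21 proliferation genes was nominally different, with a median of -0.29 on chow, 0.38 on HFD and 0.08 on average, against -0.12 on average on 19 libraries. Of 11 genes near *Adipoq* on chromosome 16, whose promoter drives Cre in AKO mice, *Rfc4*, a DNA clamp loader subunit gene, was nominally higher (0.49, SE 0.152, unadjusted p = 0.00348, edgeR quasi-likelihood test), and the list median was 0.00.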

How the data were processed

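RNA from epididymal fat pads of 24 mice was made into QuantSeq 3′ libraries and read with 50-base forward reads. The authors counted reads per gene on GRCm38 with the Lexogen pipeline, and Rsubread is named for the count matrices; the deposited raw counts were used, and the deposited size-factor normalized signal was not. The aligner version and strand setting are not given in the sources used here. The submitters' processing notes name R 4.0.3 and DESeq2 1.30. Positions and symbols came from GENCODE M21 (16683 of 16730 genes).

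Counts were filtered at 1 CPM in at least 3 libraries, scaled by TMM and fitted with edgeR 4.0.16 (R 4.3.3), 1 coefficient per group. The study used limma-voom, which also takes counts and was fitted here as an alternative. The main contrast was the mean of the chow and HFD genotype differences. SE was the absolute log2 fold change over the square root of the F statistic. Calls needed a 1.5-fold change, an unadjusted p of at most 0.001 and a group mean of at least 2 CPM, and adjusted p-values are Benjamini-Hochberg over 15020 genes. Limma-voom (limma 3.58.1), DESeq2 1.42.0, other scalings, filters, covariates and library sets were alternatives, and the edgeR fit was tested on simulated data. It called 24 of 50 genes changed 1.5-fold and 41 of 50 changed 2-fold, in the right direction, and 11 unchanged genes. CPM in the text are scaled by the TMM library sizes, and shares and floors use raw totals.

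Named genes were *Lama4*, *Plxnd1*, *Col15a1*, *Zfp949*, *Ubqln4*, all called genes and, from each list, the members called or the 2 with the lowest p. Genes on both diets, near *Zfp949* or in the mitochondrial genome, and list members at an unadjusted p under 0.05, were added, and 1 list member is not reported here. The comparison, the members and the lists were chosen with earlier results of these data known. The labels number mice 1 to 6 in each group, but the numbers did not pair them: of 12 pairs, 6 deviated together with r over 0.1 (range -0.346 to 0.714). Replicates were separate mice, and no pair of the 60 within groups agreed within counting noise. Library totals set the precision of low genes, and floors of 3 counts cover counting error only.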

Additional observations from a re-analysis of the deposited data

Results flagged for a closer look

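Of 324 sets of 6 libraries checked, 32 (9.88%) had a highest or lowest library whose gap to the next, over the range of the group, passed Dixon's critical value for 6; chance gives about 1 in 20. Among genes called in the average this held for *Gm28586* in HFD-fed fl/fl replicate 2 (ratio 1.0), for *mt-Ti* in HFD-fed AKO replicate 2 (0.650) and for *Ces1f* in chow-fed AKO replicate 1 (0.62502). In HFD-fed AKO, replicate 6 stood apart in the first principal component (0.764) and in *Lama4* (0.689), *Fabp4* (0.672), *Me1* (0.685), *Pdgfrb* (0.626) and *Mbp* (0.631). In the same group replicate 5 stood apart in log2 library total (0.737) and replicate 1 in *Zfp882* (0.725) and *Cuzd1* (1.0). In chow-fed fl/fl, replicate 1 stood apart in *Plxnd1* (0.732), *Mcm2* (0.714), *Trem2* (0.855), *Cd9* (0.694), *Mmp8* (0.682) and *Pmp22* (0.769). In that group replicate 3 stood apart in *Col15a1* (0.689), *Col5a1* (0.632), *Fabp4* (0.632), *mt-Nd5* (0.668), *Xaf1* (0.659) and *Sppl2b* (0.680). In chow-fed AKO, replicate 5 stood apart in log2 library total (0.721), *Xaf1* (0.676), *Fosb* (0.703) and *Cuzd1* (0.669). In HFD-fed fl/fl the ratios were 0.762 for *Bhlhe40* in replicate 4, 0.645 for *Klf2* in replicate 2, 0.784 for *Retnlg* in replicate 1 and 1.0 for *Cuzd1* in replicate 1.

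The genotype effect on *Ubqln4* differed between the diets, 0.65 on chow and -0.72 on HFD on the log2 scale, with an adjusted p of 0.0499 in the edgeR quasi-likelihood test of the difference.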

How the results depend on the processing

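The average over both diets called 5 genes in the fit as reported, 4 to 7 with the additive model, without diet, with the first principal component as a covariate, with RLE size factors, without the filter, with filterByExpr or with limma-voom on 19 libraries, and 5 with the replicate number as a block. It called 3 with the log2 library total as a covariate, 3 with limma-voom, 43 (4 higher, 39 lower) with sample quality weights, 12 (2 higher, 10 lower) with DESeq2, 11 (8 higher, 3 lower) on 19 libraries, 3 at a fold change of at least 2, 14 without a fold criterion, and 1 at an adjusted p of at most 0.05, with or without one. Leaving out 1 library gave 3 to 10, with 10 without chow-fed AKO replicate 2 and 9 without HFD-fed AKO replicate 6.

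Within chow the 18 calls became 35 with the first principal component, 291 with quality weights, 42 with DESeq2, 35 on 19 libraries, 5 at 2-fold and 0 at an adjusted p of at most 0.05, and 5 to 65 leaving out 1 library. Within HFD the 27 became 9 with the library total, 528 with quality weights, 84 with DESeq2, 84 on 19 libraries, 88 on these with limma-voom, 9 at 2-fold and 0 at an adjusted p of at most 0.05, and 14 to 93 leaving out 1 library. For the difference between diets the 58 became 35 with the library total, 1358 with quality weights, 148 with DESeq2, 101 on 19 libraries, 95 on these with limma-voom, 37 at 2-fold and 1 at an adjusted p of at most 0.05, and 29 to 188 leaving out 1 library. Its split of 19 higher and 39 lower was 8 and 45 with RLE size factors, and the HFD split of 13 and 14 was 10 and 16. The cause of these changes was not tested. With the replicate block, 11 genes were called on chow, 19 on HFD and 32 for the difference, and since the replicate numbers did not pair the mice (4 of 12 pairs correlated best with their own number) these counts are given for completeness.

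The same-sign share of 35.7% became 44.6% with the first principal component, 45.0% on 19 libraries, 32.8% with limma-voom and 46.3% with both of the last. *Lama4* turned to 0.0986 on 19 libraries and 0.130 on these with limma-voom, and no *Lama4* fit passed an unadjusted p of 0.05. In that order of fits *Me1* became 0.0672 and 0.0565, *Hlf* 0.0513 and 0.00299, Hbb-bs 0.172 and 0.158, *Mbp* -0.0206 and -0.0310, and *Utrn* 0.117 and 0.135 (0.00964 with the first principal component). On 19 libraries with limma-voom *Lamc3* was 0.0518, *Sema3e* 0.201, *Lat* -0.274 and *Slc6a4* -0.0834. *Ubqln4* was 0.010003 with quality weights. *Trem2* was 0.0358 without diet and 0.142 with limma-voom, and *Cd9* was 0.0430 and 0.0471. Leaving out 1 library gave -0.363 to 0.0196 for *Trem2*, -0.309 to 0.0140 for *Cd9*, -0.132 to 0.447 for *Lat*, -0.996 to 0.0306 for *Retnlg* and -2.46 to 1.04 for *Cuzd1*. *Cuzd1*, at or near 0 counts in most libraries, was -0.408 with the additive model, -1.20 without diet, -0.00181 with the replicate block, -0.250 with the library total, -1.08 with limma-voom, -0.923 with quality weights, -0.479 on 19 libraries and -1.26 on these with limma-voom. None of these genes was called.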
